A study of Homo sapiens with 6 samples.

Results

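H19, IGF2, KCNQ1OT1, CDKN1C, PHLDA2 and SLC22A18 are imprinted genes that lie together on the short arm of chromosome 11. They were taken by symbol from a table of gene counts, in which all 6 were found among 63677 genes. All 6 passed the filter on low counts, SLC22A18 only through the naive libraries. The counts come from RNA sequencing of human embryonic stem cells of the established lines RH6 (Royan H6) and RH5 (Royan H5). Per the labels, the naive state was induced in a condition named 2a2iL and the cells were later passaged in 2iL medium. Primed cells were grown with bFGF, and both kinds shared a layer of inactivated mouse embryonic fibroblasts. Naive RH6 (passage 10) and naive RH5 (passage 17) had 2 libraries each, and primed RH6 (passage 20) and primed RH5 (passage 16) had 1 each. Each library held 13457979 to 14663982 counts. Naive state and medium cannot be told apart, since they changed together. Passage differed between all groups, so differences between the lines, and between the states within a line, cannot be told apart from differences in passage. Nothing in the labels says that duplicates were separate cultures, so the p-values reflect a spread that may be technical.

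An imprinted gene is transcribed mainly from the copy of 1 parent, as set by DNA methylation placed in the germ line. In the H19-IGF2 domain, a control region near H19 binds the insulator protein CTCF on the unmethylated maternal copy, which keeps shared enhancers at H19. The methylated paternal copy uses these enhancers for IGF2. In the neighbouring KCNQ1OT1 domain, the long RNA KCNQ1OT1 is made from the paternal copy and silences CDKN1C, PHLDA2, SLC22A18 and KCNQ1 on it. Loss of these controls is known from overgrowth and growth restriction syndromes, and cultured pluripotent cells often lose imprints. The counts here add both parental copies, so allele use was not measured.

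H19, whose RNA is the host transcript of miR-675, held the largest difference of the 6 genes. RefSeq tables matched a promoter window for 1 of the 6 genes, H19, at chr11:2001217-2001516 of build GRCh38.p14 on the minus strand. That build is not the one named for the counts. The window runs from 250 bases before the start to 50 after it, with CG dinucleotides, the sites of DNA methylation, in capitals. It is shown with both mature arms of the microRNA, which lie at chr11:1996800-1996822 and chr11:1996768-1996787 of the same build and strand. Only 1 window per gene was kept, so other starts of H19 were not looked at, and the window need not be the main promoter. Whether the counted H19 RNA starts in this window was not tested. In the arms, capitals mark the seed, bases 2 to 8.
H19 promoter: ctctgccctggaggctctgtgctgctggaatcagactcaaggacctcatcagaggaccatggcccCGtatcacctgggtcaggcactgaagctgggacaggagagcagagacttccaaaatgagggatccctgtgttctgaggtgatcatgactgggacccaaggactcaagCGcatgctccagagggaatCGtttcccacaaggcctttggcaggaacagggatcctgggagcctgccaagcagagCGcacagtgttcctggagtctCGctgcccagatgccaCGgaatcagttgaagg
miR-675-5p: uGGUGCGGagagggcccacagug
miR-675-3p: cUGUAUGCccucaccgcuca
The H19 window held 6 CG dinucleotides, against a median of 14 over the 27326 promoter windows of the table. A larger number was found in 62.6% of the windows. No row of the count table carried the symbol MIR675, so the microRNA has no value here.

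H19 RNA was far more abundant in naive than in primed cells of both lines. Levels are given as CPM, the counts of a gene as a share of the library total, scaled by the TMM method. H19 (ENSG00000130600) stood at 233.6 and 182.3 CPM in naive RH6 and at 282.8 and 274.6 CPM in naive RH5. It stood at 9.23 CPM in primed RH6 and 13.5 CPM in primed RH5. The groups did not overlap, and the lowest naive library lay far above the higher primed one. These values rest on 2483 to 4008 counts in naive libraries and on 138 and 187 counts in primed libraries. The log2 fold change of H19, naive over primed, was 4.43 ± 0.16 (SE; edgeR quasi-likelihood test, adjusted p = 4.81e-05), or 21.5-fold. H19 ranked at 127 from the top among the 19434 genes tested, by fold change. H19 was called under all 14 other settings tried, at 4.34 to 4.53. In bulk RNA, a change in the number of expressing cells and in RNA per cell cannot be told apart.

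H19 rose in each line, and no difference between the lines was detected. The rise was 4.49 ± 0.20 (SE) in RH6 and 4.37 ± 0.20 in RH5 (edgeR adjusted p = 2.01e-07 and 2.87e-07). The difference of the 2 effects was 0.13, with a 95% interval of -0.44 to 0.69 (adjusted p = 0.8031). Within the naive state, H19 was lower in RH6 than in RH5 by a log2 difference of -0.42 ± 0.12 (adjusted p = 0.0262). Without naive RH6 replicate 2, the library with the lowest naive value, that difference was -0.25 and not called (adjusted p = 0.1035).

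IGF2, which encodes a growth factor of the fetus and placenta, rose with H19. IGF2 (ENSG00000167244) stood at 36.6 and 60.6 CPM in naive RH6 and at 75.9 and 132.2 CPM in naive RH5. Its primed levels were 19.3 CPM in RH6 and 8.74 CPM in RH5. All 4 naive libraries lay above both primed libraries, with the naive RH5 libraries highest and primed RH5 lowest. The duplicates lay far apart, the higher at 1.66 times the lower in RH6 and 1.74 times in RH5. The log2 fold change of IGF2 was 2.29 ± 0.56 (SE; edgeR adjusted p = 0.0252). That call was lost without naive RH6 replicate 2 (adjusted p = 0.0878), without naive RH5 replicate 1 (0.0587) and when the duplicates were summed (0.0707). Without primed RH6 the value was 3.58 and without primed RH5 it was 1.36, each being close to the effect of the other line alone.

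The rise of IGF2 was larger in RH5 than in RH6. It was 3.57 ± 0.41 (SE) in RH5, or 11.9-fold, and 1.33 ± 0.36 in RH6, or 2.51-fold (edgeR adjusted p = 1.11e-04 and 0.0165). The difference, RH6 minus RH5, was -2.24 ± 0.52 (adjusted p = 0.0206). DESeq2 did not call it (adjusted p = 0.1118), nor did limma-voom (0.0536), and DESeq2 did not call the rise in RH6 (0.1225). In the naive state IGF2 was lower in RH6, at -1.10 ± 0.26 (adjusted p = 0.0118), a call lost with DESeq2 (0.1482), and it was -0.68 without naive RH5 replicate 2. Between the primed libraries it pointed the other way, at 1.15 ± 0.45 in favour of RH6, and was not called (adjusted p = 0.2334).

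**Figure D1:**
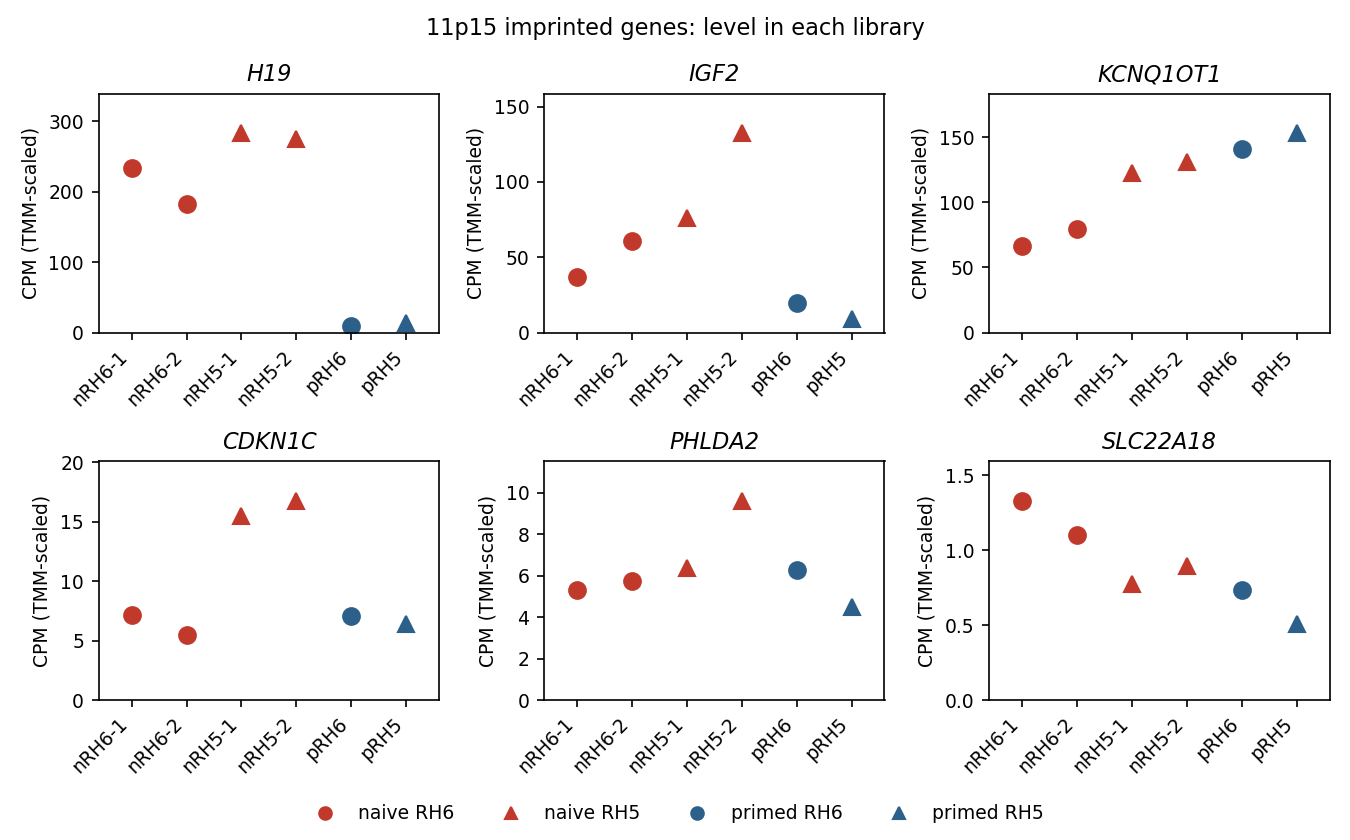
Level of each of the 6 genes in CPM (y axes start at 0) in every library (x axis; n is naive, p is primed), with circles for RH6, triangles for RH5, red for naive and blue for primed. H19 is at 182.3 to 282.8 CPM in naive and at 9.23 and 13.5 CPM in primed libraries, while CDKN1C is high in the naive RH5 libraries alone.

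KCNQ1OT1 went the other way, mostly in RH6. This RNA (ENSG00000269821) stood at 66.5 and 79.7 CPM in naive RH6 and at 122.5 and 130.7 CPM in naive RH5. The primed levels were 140.8 CPM in RH6 and 153.0 CPM in RH5. The groups did not overlap, but the naive RH5 libraries lay closer to the primed than to the naive RH6 libraries. Over both lines the log2 fold change of KCNQ1OT1 was -0.62 ± 0.17 (SE; edgeR adjusted p = 0.0334). The call was lost without any 1 of the 4 naive libraries, at -0.68 to -0.51 (adjusted p = 0.0540 to 0.1031). It was also lost without primed RH6 (-0.27, adjusted p = 0.1560), with no line term (adjusted p = 0.1995) and when duplicates were summed (0.1946).

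By line, KCNQ1OT1 fell by 0.95 on the log2 scale in RH6 (SE 0.13, edgeR adjusted p = 3.29e-04). In RH5 its value was -0.27 ± 0.13 and not called (adjusted p = 0.1372). The difference between the lines was -0.67 ± 0.19 (adjusted p = 0.0443), a call lost with DESeq2 (0.0757). Within the naive state KCNQ1OT1 was lower in RH6 than in RH5 by -0.79 ± 0.11 (adjusted p = 5.53e-04). The primed libraries differed by -0.12, with a 95% interval of -0.46 to 0.22.

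CDKN1C encodes p57, an inhibitor of cyclin-dependent kinases that slows the cell cycle, and it rose in RH5. CDKN1C (ENSG00000129757) stood at 7.13 and 5.43 CPM in naive RH6 and at 15.5 and 16.8 CPM in naive RH5. Primed RH6 was at 7.09 CPM and primed RH5 at 6.36 CPM. Naive RH5 alone stood above the rest, and the naive RH6 libraries overlapped with the primed ones. In RH5 the log2 fold change was 1.34 ± 0.23 (SE; edgeR adjusted p = 0.0014), or 2.53-fold. In RH6 it was -0.17, with a 95% interval of -0.69 to 0.35 (adjusted p = 0.6094). The effects of the lines differed by -1.51 ± 0.33 (adjusted p = 0.0143), a call lost with DESeq2 (0.0647). Naive RH6 was lower than naive RH5 by -1.35 ± 0.18 (adjusted p = 4.20e-04). Over both lines CDKN1C was at 0.55 ± 0.35 and not called (adjusted p = 0.2991). Without primed RH6 it was called, at 1.35 (adjusted p = 8.85e-04), and without primed RH5 its sign turned, at -0.15 (0.6637).

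PHLDA2, which restrains growth of the placenta, had low levels with overlapping groups. PHLDA2 (ENSG00000181649) stood at 5.31 and 5.73 CPM in naive RH6, 6.35 and 9.61 CPM in naive RH5, 6.29 CPM in primed RH6 and 4.48 CPM in primed RH5. Over both lines its log2 fold change was 0.29 ± 0.30 (SE; edgeR adjusted p = 0.5253). Without primed RH5 the sign turned, at -0.16 (adjusted p = 0.7023). In RH5 alone it was 0.83 ± 0.30 and not called (adjusted p = 0.0566). That value was called without naive RH5 replicate 1 (1.10, adjusted p = 0.0065), without naive RH6 replicate 1 or 2 (0.0341 and 0.0335) and with no low-count filter (0.0197). Without naive RH5 replicate 2 it was 0.52.

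SLC22A18, a membrane transporter gene, had the lowest counts of the 6 genes, with 7 to 19 per library. SLC22A18 (ENSG00000110628) stood at 1.33 and 1.10 CPM in naive RH6, 0.776 and 0.894 CPM in naive RH5, 0.736 CPM in primed RH6 and 0.506 CPM in primed RH5. The groups did not overlap, by a narrow margin, and SLC22A18 passed the low-count filter only through the naive libraries, where it was higher. Its log2 fold change was 0.71 ± 0.38, with a 95% interval of -0.18 to 1.61 (edgeR adjusted p = 0.2120), and it was not called.

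Over both lines, edgeR called 3 of the 6 genes at an adjusted p under 0.05, H19 and IGF2 higher and KCNQ1OT1 lower. Of all genes tested, 25.7% were called in this comparison, 12.1% higher and 13.6% lower. The median log2 fold change was 0.63 over the 6 genes and -0.01 over all genes. Of the 6 genes, 3 had naive libraries that all lay above both primed ones, and 1 had them all below. Among all genes tested the shares were 21.5% and 22.9%. SLC22A18 is among the 3 and passed the low-count filter only through the naive libraries, so its place there is not independent of the filter. In RH6, 3 of 6 were called (33.6% of all genes), and in RH5 3 of 6 (33.5%). For the difference of the state effect between lines, 3 of 6 were called, IGF2, KCNQ1OT1 and CDKN1C, all 3 with lower values in RH6. Of all genes, 12% were called for this difference, 5.86% higher and 6.16% lower. Between the naive lines, 4 of 6 were called, each lower in RH6 (13.5% of all genes were lower). Between the primed libraries, edgeR called 0 of 6 (3.83% of all genes, 1.64% higher and 2.19% lower in RH6), with 2 at an unadjusted p under 0.05, H19 and IGF2. DESeq2 and limma-voom also called 0. IGF2 was called with no low-count filter (adjusted p = 3.10e-06), and without any 1 naive library (adjusted p = 3.37e-05 to 0.0382), at 1.14 to 1.15 in each. Each comparison by line shares libraries with the others.

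**Figure D2:**
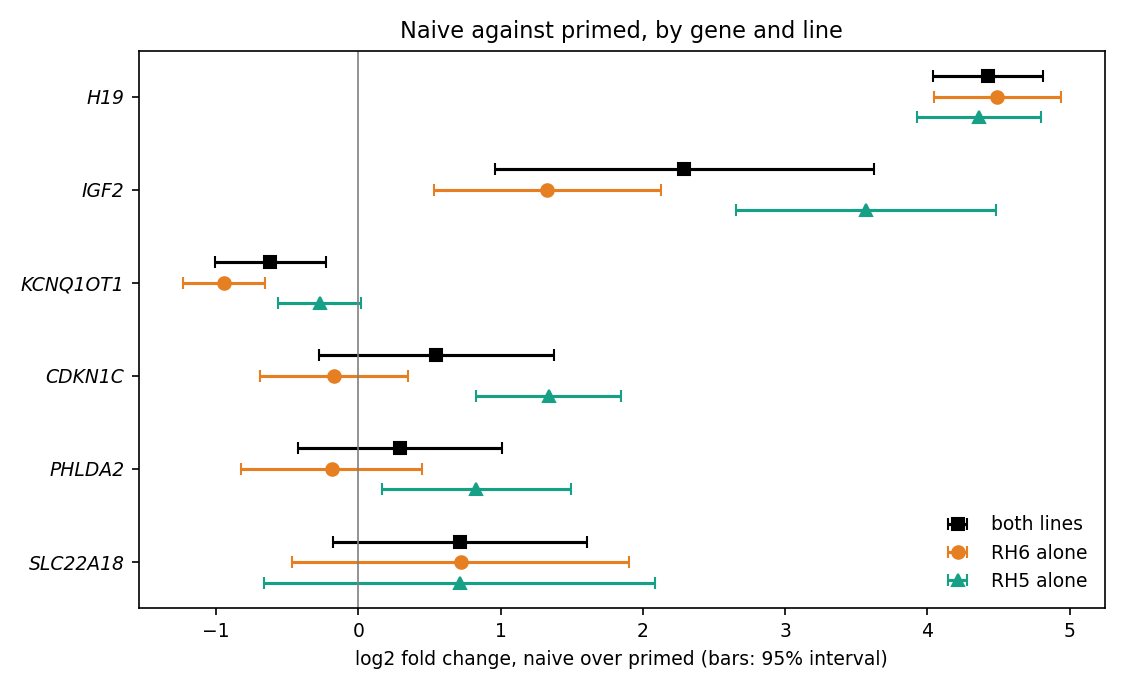
Log2 fold change of naive over primed cells (x axis) for each gene (y axis), with 95% intervals as bars, for both lines together (squares), RH6 (circles) and RH5 (triangles). The H19 estimates nearly coincide at 4.37 to 4.49, whereas those of IGF2 lie apart, at 1.33 in RH6 and 3.57 in RH5.

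Levels of different genes were compared per kilobase of exon, with lengths from GENCODE v29, which is not the authors' annotation. In naive cells H19 led the 6 genes, at a mean of 71.8 CPM per kilobase in RH6 and 96.2 in RH5. In primed RH6, PHLDA2 was the highest, at 6.59, and H19 stood at 3.19. In primed RH5 the levels of PHLDA2 and H19 were nearly equal, at 4.69 and 4.66. The IGF2 level per kilobase was 6.96 in naive RH6 and 14.9 in naive RH5, against 2.77 and 1.25 in the primed libraries of these lines. KCNQ1OT1 had 0.798 to 1.67 in the 4 groups, since its counts spread over 91667 bases, and SLC22A18 was lowest throughout, at 0.0951 to 0.229.

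The genes around the 6 were taken from a list of 25 symbols of the same region, of which 24 were found and 9 could be tested. CD81, a tetraspanin gene between the 2 domains, was higher in naive cells. It stood at 107.0 to 132.9 CPM in the naive libraries and at 51.2 and 56.0 CPM in the primed libraries. Its log2 fold change was 1.18 ± 0.13 (SE; edgeR adjusted p = 0.0011), and it was called in RH6 and in RH5. KCNQ1, the potassium channel gene that KCNQ1OT1 runs through in antisense, was lower. It had 0 and 0 counts in naive RH6, 4 and 4 in naive RH5, and 25 in each primed library. The log2 fold change of KCNQ1 was -3.67 ± 0.74 (adjusted p = 0.0123), a call lost when duplicates were summed (0.1005) and with a replicate block (0.0867). The fitted value was -2.60 without primed RH6 and -7.55 without primed RH5, the latter resting on naive RH6 libraries at 0. In RH6 it was called too (adjusted p = 7.46e-04), and it was at least 15.6-fold lower, with the naive group set at a floor of 3 counts over its 2 libraries. In RH5 it fell by 2.60 on the log2 scale (adjusted p = 0.0087), a call lost with DESeq2 (0.1897). KCNQ1 passed the low-count filter only through the primed libraries.

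The other 7 tested neighbours, CTSD, MRPL23, TSSC4, TRPM5, NAP1L4, CARS and OSBPL5, were not called over both lines, at log2 fold changes of -0.34 to 0.34. The median of the 9 was 0.20. Genes that share their position with the members had few or no counts. INS-IGF2, whose exons overlap those of IGF2, and INS had 0 counts in all 6 libraries. The 0 counts of INS-IGF2 may depend on how reads shared with IGF2 were assigned, which was not tested. The IGF2 antisense gene IGF2-AS had 4 and 7 counts in naive RH5, 3 in primed RH6 and 0 elsewhere. MIR483, within IGF2, had 1 count in all, in libraries made without the small RNA fraction. KCNQ1-AS1 had 2 counts in each primed library and 0 in naive ones, KCNQ1DN had 1 count in all, and SLC22A18AS had 5. ASCL2, an imprinted trophoblast factor gene between the domains, had 1 and 2 counts in naive RH5 and 0 elsewhere. The strand setting of the counting is not given in the sources used here, so reads of overlapping genes on opposite strands cannot be told apart.

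**Figure D3:**
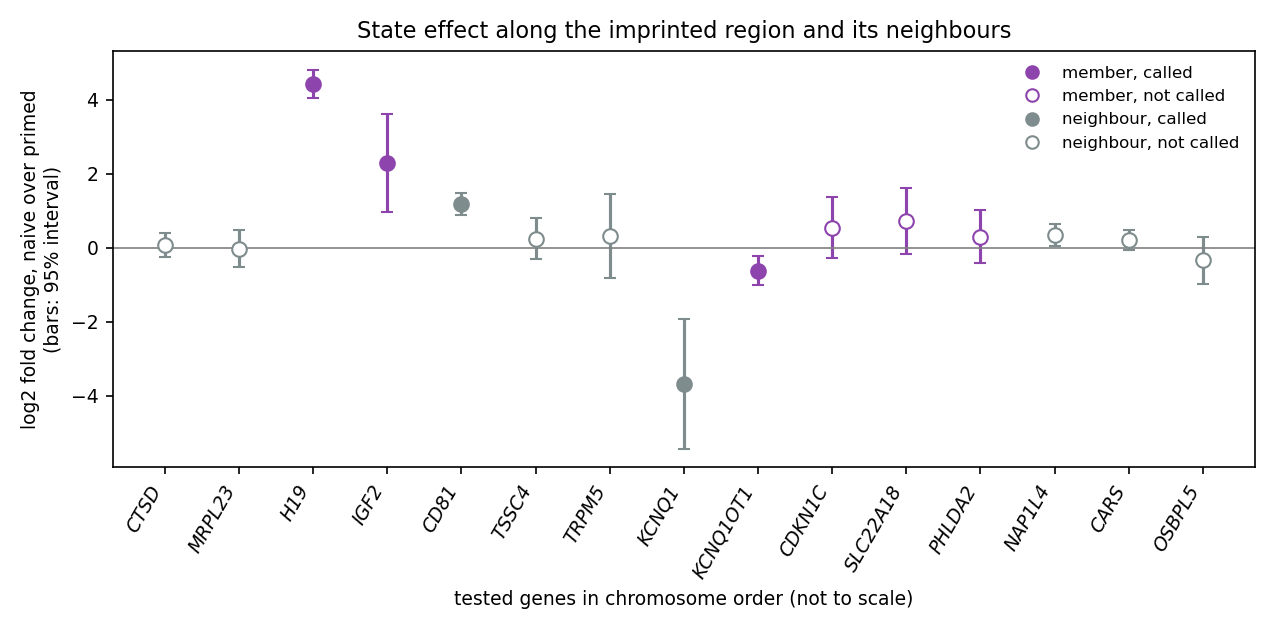
Log2 fold change of naive over primed cells (y axis, with 95% intervals) for the 15 tested genes of the region, in chromosome order but not to scale (x axis). The 6 imprinted genes described here are in purple and neighbours in grey, and filled points were called; H19, IGF2 and CD81 are above 0 and KCNQ1 and KCNQ1OT1 below.

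IGF2 acts through a pathway of receptors, binding proteins and RNA-binding regulators, of which 19 of 20 listed genes were tested, 3 called higher and 7 lower. Their median log2 fold change was -0.21. Of all genes tested, 12.1% were called higher and 13.6% lower. When duplicates were summed, fewer genes were called throughout. The called genes named from this list and those of imprint upkeep, kinase inhibitors and other imprinted genes were followed in that setting, IGFBP2 and IGFBP4 aside. Of these, IGF1, IGFBP7, IGFBP3, NLRP7, CDKN1A and TP73 were called over both lines, and the others were not. Some of these genes passed the low-count filter only through the state where they were high: IGF1, CDKN2A and DIRAS3 through the naive libraries, and IGFBP6 and TP73 through the primed ones. IGF1, the related ligand, rose by 3.63 ± 0.36 (SE; edgeR adjusted p = 8.70e-04), from 0.268 and 0.361 CPM in primed to 2.42 to 6.33 CPM in naive libraries. IGF2R, the receptor that removes IGF2 from the cell surface, rose by 0.67 ± 0.12 (adjusted p = 0.0070). The signalling receptor gene IGF1R was not called over both lines, at -0.22 ± 0.13 (adjusted p = 0.2767). In RH5 IGF1R was lower, at -0.46 ± 0.11 (adjusted p = 0.0088), in RH6 it was at 0.04 ± 0.11, and the difference between lines was not called (adjusted p = 0.0655). The insulin receptor gene INSR fell, at -1.45 ± 0.23 (adjusted p = 0.0051). Without primed RH6, INSR was at -0.85.

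The binding protein genes of the IGF pathway moved in both directions, with IGFBP7 called higher, IGFBP2, IGFBP3, IGFBP4 and IGFBP6 called lower and IGFBP5 not called. IGFBP2 was at -1.10 ± 0.12 (SE; edgeR adjusted p = 0.0013) and IGFBP4 at -1.41 ± 0.12 (adjusted p = 4.70e-04). The values of IGFBP2 and IGFBP4 under the other settings were not examined. IGFBP7 rose by 3.18 ± 0.22 (SE; edgeR adjusted p = 2.19e-04). IGFBP3, which carries most IGF in serum, fell from 108.5 and 119.8 CPM in primed to 18.4 to 21.5 CPM in naive libraries, a log2 fold change of -2.52 ± 0.12 (adjusted p = 6.63e-05). IGFBP6, which prefers IGF2, had 0.149 to 0.807 CPM in naive and 1.81 and 3.68 CPM in primed libraries (-2.67 ± 0.59, adjusted p = 0.0169). The call of IGFBP6 was lost without naive RH6 replicate 1, naive RH5 replicate 1 or primed RH5. Its value was -1.44 without primed RH5 and -4.02 without primed RH6.

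**Figure D4:**
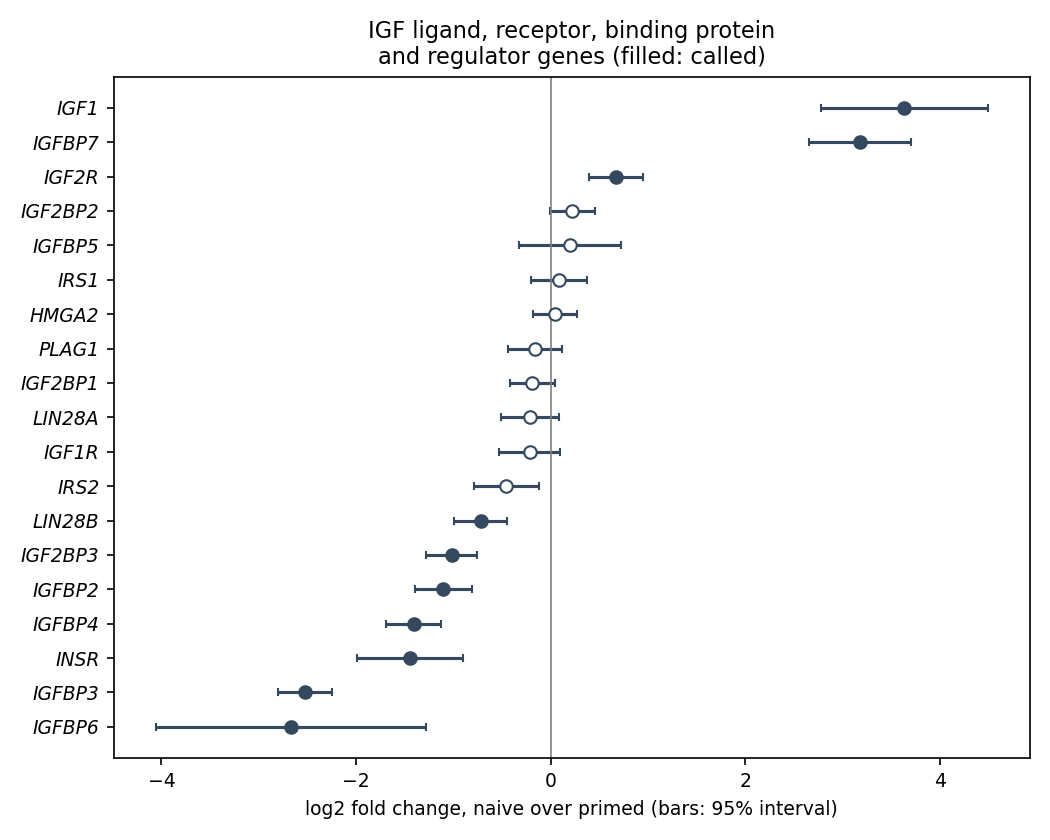
Log2 fold change of naive over primed cells (x axis, with 95% intervals) for the 19 tested genes of the IGF pathway (y axis), with filled points for genes called. IGF1, IGFBP7 and IGF2R are the 3 called higher, and IGFBP6 and IGFBP3 lie at the lower end, at -2.67 and -2.52.

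Of 22 listed genes tied to the upkeep or removal of imprints, TET1, TET2 and TET3 among them, 21 were tested, with a median log2 fold change of 0.07. Over both lines 4 were called higher and 3 lower, against 12.1% and 13.6% of all genes tested. NLRP7, a maternal-effect gene tied to imprinting in the egg, rose by 3.98 ± 0.16 (SE; edgeR adjusted p = 5.14e-05). DPPA3, which shields methylation in the zygote, rose by 1.80 ± 0.39 (adjusted p = 0.0160). UHRF1, the partner of DNMT1, was higher at 0.46 ± 0.11 (adjusted p = 0.0204), a call lost without any 1 naive library. The histone methyltransferase gene EHMT2 (-0.61 ± 0.09), ARID4B (-0.59 ± 0.13) and the demethylating enzyme gene TET3 (-0.58 ± 0.10) fell. ARID4B was not called without naive RH6 replicate 2 or naive RH5 replicate 1, nor TET3 with no line term (adjusted p = 0.0592). CTCF was at 0.01 ± 0.11 and DNMT1 at 0.09 ± 0.11, and neither was called (adjusted p = 0.9437 and 0.5813), in either line or over both. TRIM28, ZNF445 and ZFP57, whose products guard imprints, were not called over both lines, but each was called in 1 line. In RH6, TRIM28 was higher at 0.42 ± 0.12 and ZNF445 lower at -0.50 ± 0.11 (adjusted p = 0.0189 and 0.0066). In RH5, ZFP57 was higher at 1.68 ± 0.47 (adjusted p = 0.0195). The difference between lines was not called for any of these 3 (adjusted p = 0.1144, 0.0743 and 0.1429).

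CDKN1C belongs to the inhibitors of cyclin-dependent kinases, of which 6 of 7 listed others were tested (median log2 fold change 0.99). Calls were 3 higher and 1 lower, against 12.1% and 13.6% of all genes tested. CDKN2A rose by 3.09 ± 0.54 (SE; edgeR adjusted p = 0.0073) and CDKN1A, a target of p53, by 1.29 ± 0.15 (adjusted p = 0.0014), a call lost with no line term (0.0563). CDKN2A was at 4.97 without primed RH5. CDKN2B rose by 2.57 ± 0.64 (adjusted p = 0.0269), a call lost without naive RH6 replicate 1, naive RH6 replicate 2 or naive RH5 replicate 2. It was 1.26 without primed RH6 and 4.37 without primed RH5. CDKN1B was lower, at -0.50 ± 0.14 (adjusted p = 0.0400), and its call was lost in 9 of 14 alternatives, any 1 naive library left out among them, and it was -0.27 without primed RH5.

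Of 46 other imprinted genes across the genome, 42 were found and 36 tested, with a median of -0.03. Calls were 3 higher and 8 lower, against 12.1% and 13.6% of all genes tested. Over both lines H19 had a larger fold change than any of the 36 other imprinted genes tested. In RH5 alone, NLRP2, a maternal-effect gene, had the larger value, at 4.55 ± 0.18 (edgeR adjusted p = 1.56e-07) against 4.37 for H19, a difference that was not tested. Of the 3 called higher over both lines, DIRAS3 had the largest value, at 2.05 ± 0.59 (SE, edgeR adjusted p = 0.0440). Neither DESeq2 nor limma-voom called DIRAS3, nor did edgeR with the line left out of the model. Its edgeR call was also lost without either naive RH6 library, naive RH5 replicate 1 or primed RH6 (1.23). RB1 rose by 0.75 ± 0.12 and BLCAP by 0.62 ± 0.15 (adjusted p = 0.0044 and 0.0215). BLCAP was not called without naive RH6 replicate 1 or 2 or naive RH5 replicate 1, and was 0.39 without primed RH6. Lower in naive cells were TP73 (-3.57 ± 0.53), GNAS-AS1 (-1.61 ± 0.23) and SNURF (-1.26 ± 0.18). SNURF and SNRPN share a transcript, so their counts may be split.

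The 3 genes most like each member were those with the smallest root mean square difference of centred log2 CPM over the 6 libraries, among 19433 others. For H19 these were the retroviral gene ERVH48-1 (0.18), ABHD12B (0.249) and the GABA receptor gene GABRB2 (0.251). For IGF2 they were FGF18, a growth factor gene (0.228), RP11-422J15.1 (0.288) and AP001888.1 (0.291). IGF2 itself lay at 1.17 from H19. For KCNQ1OT1 they were MPP7 (0.078), ASAP3 (0.091) and PLEKHG6 (0.101). CDKN1C had APEX2 (0.093), MAGED1 (0.096) and EPHB3 (0.101). PHLDA2 had FAM72D (0.071), RPS4XP13 (0.087) and AP000357.4 (0.097), and SLC22A18 had ARL15 (0.052), ARPC3P2 (0.08) and ZNF664 (0.082). Among the members, CDKN1C and PHLDA2 were closest to each other, at 0.431.

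H19 and IGF2 are also abundant in mesenchyme, trophoblast and endoderm, so markers of these cell types were read beside them. Over both lines, edgeR called 12.1% of all genes tested higher and 13.6% lower. Of 15 fibroblast genes, 9 of the 14 tested rose and 1 fell by edgeR. Their summed level was 848 to 1506 CPM in naive against 390 and 402 CPM in primed libraries. Of 16 trophoblast genes, 8 of the 13 tested rose and 1 fell, with sums of 632.6 to 716.8 against 207.4 and 241.8 CPM. Of these, ELF5, CGA, CGB and GCM1 were at 0 in both primed libraries. In naive libraries ELF5 was at 0.0699 to 0.353 CPM and GCM1 at 0 in naive RH6 and at 1.76 and 2.46 CPM in naive RH5. KRT18 was the largest part of every trophoblast sum, at 346.6 to 404.6 CPM in naive and 77.95 and 152.4 CPM in primed libraries. KRT7 was the 1 trophoblast gene that fell. Of 16 mesoderm and endoderm genes, 3 of the 15 tested rose and 2 fell, with sums of 256.8 to 400.7 against 35.8 and 122.4 CPM. T, MIXL1 and HAND1 rose, and HHEX and CXCR4 fell. HAND1 is also on the trophoblast list and adds to both sums. The other 10 tested, SOX17, FOXA2 and AFP among them, were not called over both lines. By line, 11 rose and 3 fell in RH6 (16.4% and 17.2% of all genes), and 5 rose and 6 fell in RH5 (16.5% and 17%). Of 10 neural genes, 6 fell by edgeR. The neural sums overlapped, at 713 to 1135 CPM in naive and 804.7 and 1306 CPM in primed libraries. NES was the largest part of every neural sum, at 560.8 to 1063 CPM in naive and 533.6 and 464.3 CPM in primed libraries. NES and TUBB3 were the 2 neural genes whose naive libraries all lay above both primed ones. Of the 6 that fell, OTX2 was at 34.4 to 138 against 283.1 and 194.1 CPM. SOX21 was at 3.16 to 17.5 against 373.2 and 102.4 CPM. Among the fibroblast genes, COL3A1 was at 80.9 to 159.6 CPM in naive against 5.55 and 5.27 CPM in primed libraries, and MMP2 at 138.7 to 250.1 against 23.1 and 19.7 CPM. THY1 was the 1 that fell, and DCN was at 0 to 0.596 CPM in all 6 libraries. Of the marker genes, CDX2, CGA, GCM1, HAND1 and T, among others, passed the low-count filter only through naive libraries. SIX3, RAX and HHEX passed it only through primed libraries. The counts of markers that rose or fell therefore include genes tested only because of the state where they were high. Between the naive lines, the sums of fibroblast and of mesoderm and endoderm genes were higher in both RH6 libraries. Trophoblast sums were higher in both RH5 libraries, at 687.6 and 716.8 against 642.9 and 632.6 CPM. TFAP2A alone had a gap of about that size, at 76.7 and 78.7 CPM in naive RH5 against 11.19 and 8.955 CPM in naive RH6. Of the 13 tested trophoblast genes, edgeR called 5 higher in naive RH5 and 2 higher in naive RH6 (13.5% and 12% of all genes). Of the 6 genes, edgeR called H19, IGF2, KCNQ1OT1 and CDKN1C higher in naive RH5. The part of these cell types, or of feeder RNA, in the levels of the 6 genes was not tested.

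**Figure D5:**
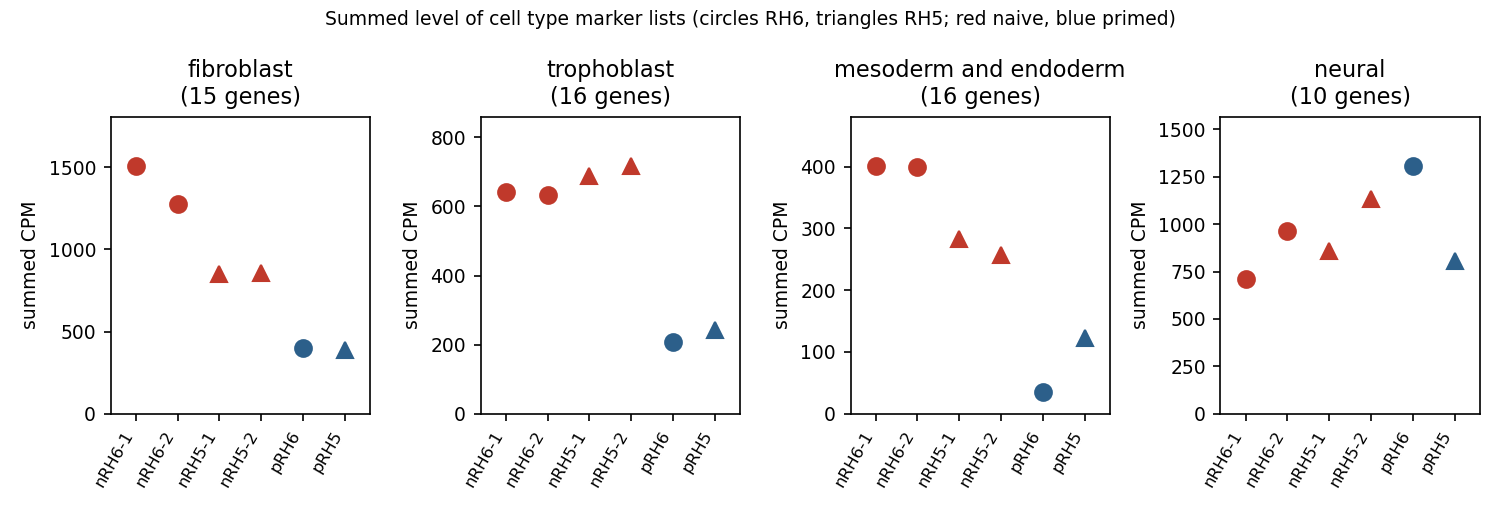
Summed CPM (y axes start at 0) of 4 lists of cell type markers in each library (x axis; n is naive, p is primed), with circles for RH6, triangles for RH5, red for naive and blue for primed. The fibroblast, trophoblast and mesoderm and endoderm sums are higher in all naive libraries than in both primed ones. KRT18 is the largest part of each trophoblast sum, and HAND1 counts in both the trophoblast and the mesoderm and endoderm sums. The neural sums overlap, with NES as the largest part of each.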

How the data were processed

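The authors deposited read counts per gene, whole numbers that are not normalized, for 6 libraries and 63677 genes. Per the labels' protocols, libraries were made from RNA without the small fraction by a stranded total RNA kit, whereas the molecule field says polyA RNA. Tools named in the submitters' processing notes are STAR 2.4.0a, FastQC, Subread with featureCounts 1.4.5-p1, and DESeq2; the builds are GRCh37.p5 and hg19. Annotation and strand setting: not given in the sources used here.

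Totals were 13457979 to 14663982 counts per library. A chi-square of the counts per gene (at least 10 in the pair) averaged 9.22 and 5.76 between naive duplicates, where counting noise gives about 1, and 19.6 to 73.1 between groups, so duplicates were kept apart. Tests used edgeR 4.0.16 in R 4.3.3 (quasi-likelihood, TMM, filterByExpr at min.count 10, min.total.count 15), Benjamini-Hochberg adjusted over 19434 genes, two-sided, called under 0.05. The contrast of states used every library and a term for the line (3 residual degrees of freedom). Contrasts by line came from 1 mean per group (2 residual degrees of freedom), where the lone primed libraries were assumed to vary like the naive duplicates. An exact permutation of 4 against 2 libraries cannot give a one-sided p under 0.067. Alternatives used DESeq2 1.42.0, limma-voom 3.58.1, other scalings, no filter, summed or left-out libraries and a replicate block.

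The 6 members and all gene lists were chosen with earlier results of these data known. Beside the members, the rule named called neighbours, genes sharing a member's locus, the 3 called genes with the largest fold change in each direction per list, and the 3 nearest patterns. CTCF, DNMT1, IGF1R, IGFBP2, IGFBP4, IGFBP5, TRIM28, ZNF445, ZFP57, NLRP2, COL3A1, MMP2, THY1, DCN and the other single cell type markers named were added after their values were seen. For symbols with several rows, the row of the primary assembly in GENCODE v29 was used. The code was tested on simulated data.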

Additional observations from a re-analysis of the deposited data

Results flagged for a closer look

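The state effect differed between the lines by an edgeR test of the difference itself for 3 of the 6 genes. For IGF2 the effect in RH6 minus that in RH5 was -2.24 on the log2 scale (adjusted p = 0.0206). For KCNQ1OT1 it was -0.67 (adjusted p = 0.0443), and for CDKN1C -1.51 (adjusted p = 0.0143). Each difference rests on 1 primed library per line, and DESeq2 called none of the 3 (adjusted p = 0.1118, 0.0757 and 0.0647).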

How the results depend on the processing

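Over both lines 3 members were called, and 1, H19, when duplicates were summed, and 1 to 3 with a library left out. Replicate numbers shared by the naive groups could not be shown to pair libraries (correlation of deviations 0.14 over 2 numbers). With a replicate block, 1 member was called over both lines, where IGF2 had an adjusted p of 0.1050 and KCNQ1OT1 of 0.0879, and 2 between the primed libraries. Between the primed libraries, 1 member (IGF2) was called with no low-count filter and 1 with any naive library left out. DESeq2 called the difference between lines for 0 members. Of 408 recomputed member values, 365 kept direction and side of the threshold, 19 lost the call, 17 gained it and 7 turned sign, all without a call. The sign turned for the difference between lines of SLC22A18 with upper-quartile factors (-0.025) and, with a library left out, of SLC22A18 (-0.134 to 0.135) and H19 (-0.062 to 0.297). It also turned with a library left out for CDKN1C in RH6 (-0.382 to 0.011) and, over both lines, for CDKN1C (-0.145 to 1.35) and PHLDA2 (-0.16 to 0.836). The cause was not tested. Of all genes, 4996 were called over both lines, 1127 with libraries summed, 2223 with the block and 2961 to 6704 with 1 library left out. DESeq2 called 4003 in RH6 and 3905 in RH5, against 6528 and 6506, and 2856 between naive lines, against 4952. For the difference between lines the count was 2337, or 1306 with DESeq2 and 4916 with the block. Between primed libraries it was 744, or 483 with DESeq2, 1478 with no filter and 2628 with the block. SLC22A18 had the fewest counts of the members, and what depth added to its interval was not tested.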

Other observations

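Per kilobase of exon, H19 exceeded IGF2 in every library. The ratio of their levels was 15.4 and 7.24 in naive RH6, 8.97 and 5.005 in naive RH5, 1.15 in primed RH6 and 3.72 in primed RH5. All 4 naive libraries had higher ratios than both primed libraries. IGF2 varied more between duplicates than H19: the ratio of replicate 2 to replicate 1 was 1.66 in RH6 and 1.74 in RH5 for IGF2, and 0.780 and 0.971 for H19. Of all genes tested, 12.4% in RH6 and 9.17% in RH5 differed more between duplicates than IGF2 did.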
